A study of Mus musculus with 15 samples.

Results

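The mouselinc features are the spots of a one-colour expression array whose probe names begin with mouselinc, a number and a sign, such as mouselincRNA0499+. They were chosen by that name among spots that were not controls, with no measured value used, and they numbered 691 of the 59575 features left on the array after quality filters. The suffix _P1, which each name carries in the files, is left out below. The number is taken as the identity of a lincRNA and the sign, + or -, as the label of the feature, since the files do not state what the sign stands for. The 691 features fell on 351 numbers: 340 had both a + and a - feature, 3 a + feature alone and 8 a - feature alone. No member matched a gene symbol in the RefSeq table of mouse genes used here, so members are given by name and no function or position is given for them.

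Long intergenic noncoding RNAs (lincRNAs) are long transcripts made between protein-coding genes that are not translated into protein. Some act on chromatin or on the transcription of neighbouring genes, and others act as scaffolds for protein complexes. As a class they are less abundant than mRNAs and more restricted to a tissue or stage, and the brain expresses many of them.

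Total RNA from mouse brain on a C57BL strain background was labelled with Cy3 and hybridised. Wild-type (WT) mice were compared with APP/PS1 mice at 1, 3, 6 and 9 months; APP/PS1 mice carry transgenes of amyloid precursor protein and presenilin 1 and deposit amyloid in the brain as they age. The line and the promoter that drives each transgene are not given in the sources used here. The sample labels give WT mice no age, although the design text speaks of age-matched controls, so age and genotype cannot be told apart in a comparison against WT. Each group holds 1 mouse labelled male and 2 labelled female, whereas the design text speaks of males. Of 15 labelled samples, 14 arrays were used. Replicates 2 and 3 at 1, 3 and 6 months were near-identical arrays and were averaged, so that 11 samples entered the fit, of which WT, 1, 3 and 6 months had 2 each and 9 months had 3. In the order used for values below, sample 1 of each group was male and the other samples female. The 14 arrays had 75th percentile intensities between 384 and 566, and their number limits the precision. The 9-month arrays were scanned at 354 V, a setting shared with no other group, so scan setting and the 9-month group cannot be told apart. The labelled tissue was not checked against its markers, because 0 of 26 cell type markers and 0 of 25 known brain lncRNAs matched a named probe.

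Mouselinc features were detected less often than the array as a whole. A level below is the log2 processed signal minus the 75th percentile of that array, so that 0 is the 75th percentile; levels of different probes also differ by probe and are not set against each other. A sample was counted as detecting a feature when every array of it carried the scanner software's flag for signal well above background. By this measure 203 of 691 mouselinc features (29.4%) were detected in all 11 samples, against 61.9% of all 59575 features. A further 200 were detected in 2 to 10 samples, 69 in 1 sample and 219 in none, and 198 carried the flag on no array. The 1215 humanlinc features of the array gave 27.0% and the 3445 lincRNA exon features 51.0% by the same count.

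The share of mouselinc features detected was 39.1% and 37.9% in the 2 WT samples. It was 45.6% and 48.0% at 1 month, and 38.5% and 39.7% at 3 months. The 6-month samples had 49.6% and 57.7%, the 9-month samples 40.2%, 50.5% and 52.4%. The second samples at 1, 3 and 6 months needed the flag on 2 arrays and every other sample on 1, so these shares are not fully alike. Taken singly, those arrays had 51.7% and 49.1% at 1 month, 46.3% and 40.4% at 3 months, and 60.3% and 59.5% at 6 months. The 1-month and 6-month samples all lay above both WT samples, whereas of the 3-month samples 1 lay between the WT samples and 1 above both. All features moved the same way, from 68.0% and 69.1% in WT to 76.6% and 80.3% at 6 months. The part of array quality in these shares was not tested.

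**Figure D1:**
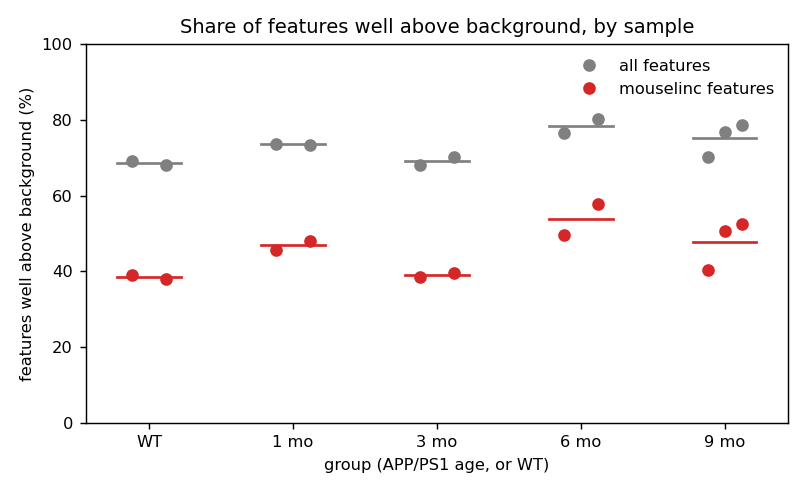
Share of features flagged well above background (%, y axis) in each of the 11 samples by group (x axis), for mouselinc features and for all features; points are samples and lines are group means. Mouselinc features lie between 37.9% and 57.7% and all features between 68.0% and 80.3%, and both sets have their highest group mean at 6 months.

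Features detected in at least 2 of the 11 samples were tested: 403 of 691 mouselinc features (58.3%) and 48358 of all. The other 288 members have no test. Of the 403, 4 were detected in 1 group only and met this rule through that group alone: 1 at 1 month, 2 at 6 months and 1 at 9 months. For these 4, a higher value in that group is not independent of the rule. Each comparison is a contrast of 1 limma fit over the 11 samples, and a feature is called where the Benjamini-Hochberg adjusted p over all 48358 features was under 0.05. The 4 comparisons against WT share the same 2 WT samples. No label says that the samples of a group are separate extractions beyond being separate samples, so these p-values measure the spread between these samples. In bulk brain RNA, fewer cells of a type and less RNA per cell cannot be told apart.

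Several members were lower at the later ages, and mouselincRNA0499+ was lower than WT from 3 months on. Its level was 2.76 and 2.89 in WT, 2.74 and 2.80 at 1 month, 2.38 and 2.35 at 3 months, 2.06 and 2.13 at 6 months, and 1.65, 1.77 and 1.65 at 9 months. The WT and 1-month samples overlapped, and from 1 month on no age overlapped the next. Against WT it did not pass at 1 month (-0.05, SE 0.08, limma adjusted p = 0.77). It was lower at 3 months by a log2 difference of -0.46 (SE 0.08, adjusted p = 0.015), at 6 months of -0.72 (SE 0.08, adjusted p = 0.0010) and at 9 months of -1.13 (SE 0.08, adjusted p = 7.3e-05). Within APP/PS1 mice it fell by 0.68 from 1 to 6 months (SE 0.08, adjusted p = 0.0010). The 6-month against 1-month difference passed in all 21 alternative settings.

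Feature mouselincRNA0797+ stood at -2.36 and -2.50 in WT, -2.54 and -2.41 at 1 month, -2.72 and -2.79 at 3 months, -2.997 and -2.82 at 6 months, and -3.40, -3.22 and -3.33 at 9 months. Its WT and 1-month samples overlapped, and all 9-month samples lay below every other sample. Its limma log2 difference from WT was -0.48 at 6 months (SE 0.10, adjusted p = 0.016) and -0.89 at 9 months (SE 0.10, adjusted p = 0.00057). Feature mouselincRNA0309- had levels of 0.34 and 0.46 in WT, 0.48 and 0.33 at 1 month, -0.09 and 0.16 at 3 months, 0.04 and -0.22 at 6 months, and -0.42, -0.50 and -0.27 at 9 months. The 3-month and 6-month samples overlapped, and the 9-month samples lay lowest. Feature mouselincRNA0309- differed from WT by -0.49 at 6 months (SE 0.13, limma adjusted p = 0.038) and by -0.80 at 9 months (SE 0.12, adjusted p = 0.0027); the first call was lost in 11 of 21 alternatives. Both members were also lower at 6 months than at 1 month, mouselincRNA0797+ by -0.43 (SE 0.10, limma adjusted p = 0.023) and mouselincRNA0309- by -0.49 (SE 0.13, adjusted p = 0.036), the latter lost in 11 of 21 alternatives.

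Features mouselincRNA0750- and mouselincRNA0052- were instead low at 9 months. Feature mouselincRNA0750- stood at -1.42 and -1.35 in WT, -1.58 and -1.63 at 1 month, -1.42 and -1.48 at 3 months, -1.47 and -2.11 at 6 months, and -2.83, -3.11 and -2.82 at 9 months. The 9-month samples lay below all others, and 1 of the 2 samples at 6 months lay between. Its limma log2 difference from WT at 9 months was -1.54 (SE 0.18, adjusted p = 0.00081), and at 6 months it did not pass (-0.40, SE 0.20, adjusted p = 0.19). Feature mouselincRNA0052- had 0.27 and 0.33 in WT, -0.33 and 0.01 at 1 month, -0.01 and 0.05 at 3 months, 0.18 and 0.06 at 6 months, and -0.79, -0.74 and -0.78 at 9 months. Both WT samples lay above all APP/PS1 samples, and the 9-month samples lay below the rest. It was lower than WT at 1 month by -0.46 (SE 0.11, limma adjusted p = 0.048), a call lost in 15 of 21 alternatives, and at 9 months by -1.07 (SE 0.10, adjusted p = 0.00037).

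**Figure D2:**
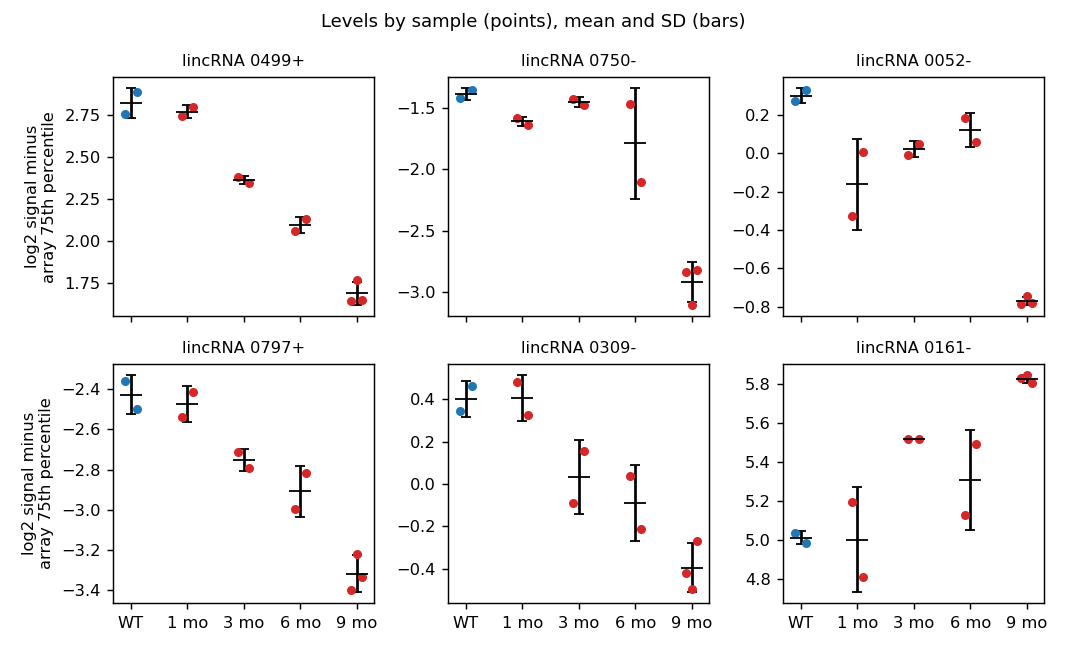
Levels (log2 signal minus the array's 75th percentile, y axis, a separate scale in each panel) of 6 mouselinc features by group (x axis), with points for samples and bars for the mean and SD. The 9-month samples lie lowest for mouselincRNA0499+, mouselincRNA0750-, mouselincRNA0052-, mouselincRNA0797+ and mouselincRNA0309-, and highest for mouselincRNA0161-.

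Across the 203 members detected in all 11 samples, 21 (10.3%) had group means that were lower at each step from 1 to 3, 6 and 9 months, and 2 (0.985%) had means that were higher at each step. Among all 36855 features detected in all samples these shares were 7.01% and 7.55%. With a total change of over 0.5 on the log2 scale, the members numbered 10 (4.93%) lower and 1 (0.493%) higher, against 3.801% and 5.03% of all. The median difference from WT of the 203 members was 0.03 at 1 month, -0.0041 at 3 months, -0.04 at 6 months and -0.16 at 9 months, and that of all 36855 features at 9 months was -0.0057. These counts are descriptions of group means with no test.

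At 9 months 10 of the 203 members detected in every sample (4.93%) were called higher than WT, against 18.2% of all features detected in every sample, and mouselincRNA0161- was among the 10. Its level was 5.03 and 4.99 in WT, 5.19 and 4.81 at 1 month, 5.52 and 5.52 at 3 months, 5.12 and 5.49 at 6 months, and 5.83, 5.84 and 5.80 at 9 months. The WT and 1-month samples overlapped, and the 9-month samples lay above all others. The limma log2 difference from WT was 0.82 at 9 months (SE 0.14, adjusted p = 0.0039), while that at 3 months did not pass (0.51, SE 0.15, adjusted p = 0.076). Feature mouselincRNA1235- had -1.77 and -2.21 in WT, -1.32 and -1.52 at 1 month, -1.58 and -1.76 at 3 months, -1.71 and -1.47 at 6 months, and -1.03, -1.08 and -1.08 at 9 months. It was 0.93 higher at 9 months than in WT (SE 0.15, limma adjusted p = 0.0029), with no overlap between those groups. Of the 30 higher calls at 9 months, mouselincRNA0161- and mouselincRNA1235- were the 2 that passed under quantile normalization, median scaling and another background correction (normexp) alike. Feature mouselincRNA0538+ (0.50, SE 0.13, adjusted p = 0.025) and mouselincRNA1210- (0.43, SE 0.12, adjusted p = 0.027), also detected in all samples, were higher at 9 months too; these 2 were picked after their values were seen.

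Many members called higher were faint in WT, and for these the array gives a bound at most. Where no array of the dimmer group had a feature well above background, "at least N-fold" compares the brighter group's mean with, on each array of the dimmer group, the higher of the lowest signal well above background and the feature's own signal. The adjusted p beside a bound is that of the limma difference between the signals themselves. No test was made of the bounds. Feature mouselincRNA0935+ stood at -4.43 and -4.45 in WT, not well above background in either sample, and at -2.84 and -2.90 at 1 month, -2.92 and -3.36 at 3 months, -2.73 and -3.15 at 6 months, and -3.52, -3.11 and -3.08 at 9 months. Every APP/PS1 sample lay above both WT samples, and all 9 were well above background. The bounds were at least 2.93-fold higher at 1 month (limma adjusted p = 0.0053), 2.43-fold at 3 months (adjusted p = 0.0089), 2.79-fold at 6 months (adjusted p = 0.0025) and 2.27-fold at 9 months (adjusted p = 0.0031). Under normexp its difference from WT was -0.05 at 1 month, where the median of all features tested was -0.24 and that of the mouselinc features -0.45.

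Features mouselincRNA0394- and mouselincRNA0953+ were higher than WT at all 4 ages as well. Feature mouselincRNA0394- had -5.80 and -5.32 in WT, -3.77 and -3.11 at 1 month, -3.75 and -3.40 at 3 months, -3.39 and -4.17 at 6 months, and -4.45, -4.36 and -4.57 at 9 months. No APP/PS1 sample overlapped WT, and the 9-month samples were the lowest of the 4 ages. Its bounds were at least 2.11-fold at 1 month (limma adjusted p = 0.0078), 1.92-fold at 3 months (adjusted p = 0.0081), 1.67-fold at 6 months (adjusted p = 0.0067) and 1.04-fold at 9 months (adjusted p = 0.023). Feature mouselincRNA0953+ stood at -5.58 and -4.96 in WT and between -4.46 and -3.52 in the 9 APP/PS1 samples. Its bounds ran from at least 1.29-fold at 3 months (limma adjusted p = 0.042, lost in 14 of 20 alternatives) to 1.80-fold at 6 months (adjusted p = 0.0061). Both turned sign at every age under normexp.

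Feature mouselincRNA0651+ was detected at 6 months and in part at 9 months, and in no sample of the other groups. Its level was -6.64 and -6.18 in WT and -6.55 and -6.87 at 1 month, where it was well above background on no array, and -4.32 and -5.31 at 3 months, -4.30 and -4.29 at 6 months, and -4.92, -5.04 and -4.53 at 9 months. Both samples at 6 months were well above background, as was 1 of 3 at 9 months and neither at 3 months. At 6 months it was at least 1.47-fold higher than at 1 month (limma adjusted p = 0.0017) and at least 1.17-fold higher than in WT (adjusted p = 0.0040). Feature mouselincRNA0344+ had -6.82 and -6.74 in WT, -7.01 and -6.09 at 1 month, -6.60 and -6.79 at 3 months, -5.73 and -4.70 at 6 months, and -5.12, -4.68 and -4.71 at 9 months. It was well above background in 1 of 2 samples at 6 months and 2 of 3 at 9 months, and in no other sample. It passed at 6 months (limma adjusted p = 0.026) and 9 months (adjusted p = 0.0054) against WT, and no fold is given because the bound did not exceed 1. Levels of this size lie near those of the negative probes, whose median level ran from -7.17 to -6.42 over the samples.

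**Figure D3:**
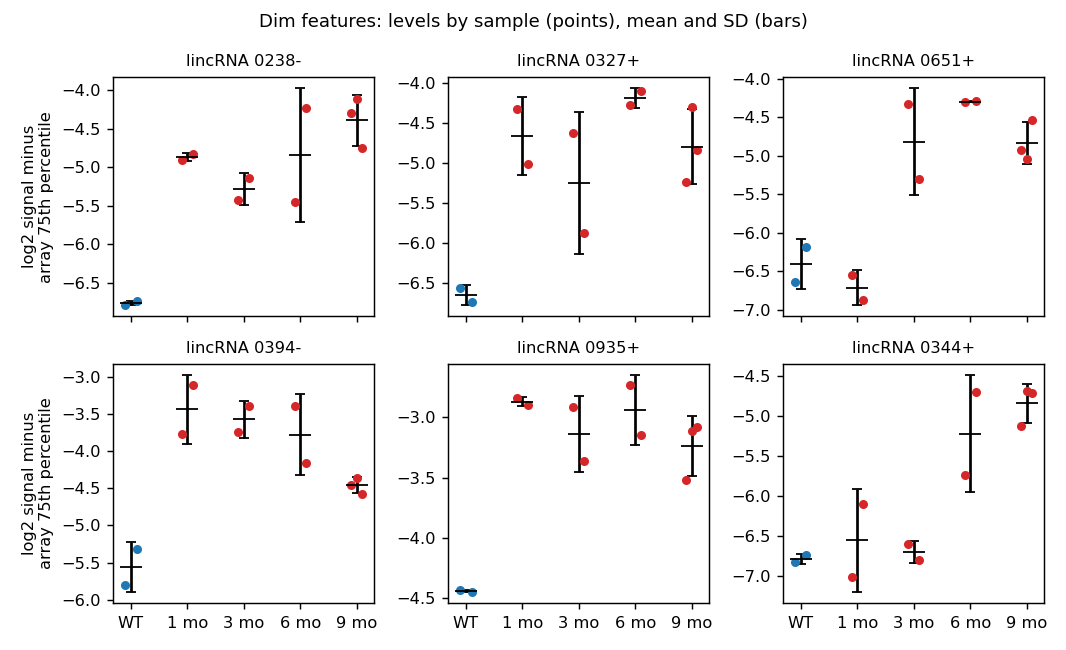
Levels (log2 signal minus the array's 75th percentile, y axis, a separate scale in each panel) of 6 faint mouselinc features by group (x axis), with points for samples and bars for the mean and SD. The WT samples lie below every APP/PS1 sample for mouselincRNA0238-, mouselincRNA0327+, mouselincRNA0394- and mouselincRNA0935+, whereas for mouselincRNA0651+ and mouselincRNA0344+ they overlap the 1-month samples.

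At 1 month, 16 of the 403 mouselinc features tested were called against WT, 15 higher and 1 lower, against 8.51% of all features tested. That is 3.97% of the mouselinc features tested, below the background. Of the higher ones, mouselincRNA0394-, mouselincRNA0327+, mouselincRNA0238-, mouselincRNA0935+ and mouselincRNA0953+ were detected on neither WT array, so their differences are bounds and have no order; the bounds were at least 2.93-fold for mouselincRNA0935+, 2.11-fold for mouselincRNA0394- and 1.74-fold for mouselincRNA0953+, and did not exceed 1 for the other two. The lower one was mouselincRNA0052-. Feature mouselincRNA0327+ had -6.56 and -6.74 in WT and -4.32 and -5.003 at 1 month (SE 0.45, limma adjusted p = 0.037), and mouselincRNA0238- had -6.78 and -6.74 in WT and -4.90 and -4.83 at 1 month (SE 0.37, adjusted p = 0.023). Both features were without overlap between the groups, and the call of mouselincRNA0327+ was lost in 13 of 20 alternatives and changed sign in 1. The second WT value of both, -6.74, is the floor of that array, so the spread in WT was not measured. Among the 203 members detected in all samples, 5 were higher, where the background was 4.4%, and 1 was lower, where it was 4.95%. Leaving out 1 sample took the count to 3 without 1-month sample 1, 5 without 1-month sample 2, 9 without 9-month sample 3 and 10 without either 3-month sample. In a fit of WT and 1-month samples alone it was 1 of 311, against 441 of 43319 features. Under normexp all 19 calls were lower, as were 2943 of the 3909 calls over all features.

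At 3 months, 15 mouselinc features were called, 10 higher and 5 lower, against 10.1% of all features tested. The 10 higher ones were detected in neither WT sample. Feature mouselincRNA1619+ had -6.27 and -6.74 in WT and -4.36 and -4.64 at 3 months, at least 1.01-fold higher (limma adjusted p = 0.0032), and mouselincRNA0342+ had -5.67 and -6.74 in WT and -4.90 and -3.76, at least 1.14-fold higher (adjusted p = 0.039). The 5 lower ones were detected in all samples: mouselincRNA0315- (-0.83, SE 0.19, adjusted p = 0.036), mouselincRNA0522- (-0.73, SE 0.17, adjusted p = 0.034), mouselincRNA0013- (-0.57, SE 0.13, adjusted p = 0.038), mouselincRNA0970- (-0.46, SE 0.10, adjusted p = 0.026) and mouselincRNA0499+. Feature mouselincRNA0522- stood at -0.09 and 0.23 in WT, -0.55 and -0.77 at 3 months and -0.21, -0.25 and -0.29 at 9 months, so that its 3-month samples were the lowest of these. The 3-month calls of mouselincRNA0522- and mouselincRNA0013- were each lost in 12 of 21 alternatives. That of mouselincRNA0315- was lost in 10 of 21, that of mouselincRNA0970- in 7 and that of mouselincRNA0499+ in 5. The call of mouselincRNA0342+ was lost in 14 of 20 with a change of sign in 1. Backgrounds among features detected in all samples were 6.81% higher and 4.25% lower, and the lower members made 2.46% of the 203. The split of 10 higher and 5 lower became 6 and 8 under quantile normalization, 6 and 6 under median scaling, and 4 lower calls alone under normexp. The count was 7 without 3-month sample 1, 25 without 3-month sample 2, 8 without either 1-month sample and 9 without 9-month sample 3. The fit of WT and 3-month samples alone called 0 of 277 members and 786 of 41795 features. At an unadjusted limma p under 0.05 it had 36 of these members and 9569 of these features.

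At 6 months, 35 mouselinc features were called, 26 higher and 9 lower, against 20.9% of all features tested. The share was 8.68% of the mouselinc features tested. Among those faint in WT, mouselincRNA0327+ stood at -4.27 and -4.10 at 6 months against -6.56 and -6.74 in WT, at least 1.26-fold higher (limma adjusted p = 0.0078). Feature mouselincRNA1388- had -3.88 and -4.38 at 6 months against -6.68 and -6.32 in WT, at least 1.31-fold higher (adjusted p = 0.033), and it was not well above background in any 9-month sample. Feature mouselincRNA0941+ had -6.70 and -4.44 in WT and -3.56 and -3.45 at 6 months, at least 2.02-fold higher (adjusted p = 0.049), with the 2 WT samples far apart; this call was lost in 15 of 21 alternatives and changed sign in 1. Of the 26 higher calls, 17 were detected in neither WT sample, and 7 kept their direction under the 3 other normalizations, with 0 of them called in all 3 (limma; 16 were called under quantile normalization, 15 under median scaling and 1 under normexp).

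The 9 lower members at 6 months were detected in all samples. Besides mouselincRNA0499+, mouselincRNA0797+ and mouselincRNA0309- they included mouselincRNA0013-, at -1.75 and -1.67 in WT and -2.11 and -2.36 at 6 months (-0.53, SE 0.13, limma adjusted p = 0.030), and mouselincRNA0772-, at 3.32 and 3.40 in WT and 2.97 and 2.79 at 6 months (-0.48, SE 0.10, adjusted p = 0.012). Feature mouselincRNA1188-, at 6.60 and 6.65 in WT and 6.24 and 6.34 at 6 months, differed by -0.33 (SE 0.07, adjusted p = 0.018), and mouselincRNA0305-, at 4.78 and 4.73 against 4.24 and 4.48, by -0.40 (SE 0.11, adjusted p = 0.037), a call lost in 14 of 21 alternatives. The groups did not overlap for any of these 4. Of the 9, 6 were called under all 3 other normalizations. Backgrounds among features detected in all samples were 12.7% higher and 10.5% lower, against 3.94% and 4.43% of the 203 members. The split of 26 higher and 9 lower was 16 and 9 under quantile normalization, 15 and 11 under median scaling, and 1 and 80 under normexp. Without 9-month sample 2 the count was 22 of 395, against 8778 of 47985 features. In the fit of WT and 6-month samples alone it was 7 of 349, against 2200 of 45658.

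At 9 months, 67 mouselinc features were called, 30 higher and 37 lower, against 31% of all features tested. The share was 16.6% of the mouselinc features tested. Of the 37 lower members, 35 were detected in all samples, which is 17.2% of the 203 and near the background of 16.8%. The 10 higher members detected in all samples were 4.93% of the 203, below the background of 18.2%. Under all 3 other normalizations 34 of the 37 lower calls and 2 of the 30 higher calls passed. One of the 3, normexp, moved the median difference of all features tested to -0.25 and that of the mouselinc features to -0.45, both below 0; under quantile normalization alone 37 of the 37 and 21 of the 30 passed, and under median scaling 37 and 23. The split was 22 higher and 54 lower under quantile normalization, 23 and 45 under median scaling, and 4 and 128 under normexp.

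The largest lower difference at 9 months, that of mouselincRNA0166-, was uneven. It stood at -2.04 and -3.70 in WT and -4.52, -5.21 and -4.40 at 9 months, a difference of -1.84 (SE 0.52, limma adjusted p = 0.032). Its groups did not overlap, and the 2 WT samples lay farther apart than the 3 samples at 9 months. Feature mouselincRNA0963+ had -4.20 and -4.17 in WT and -5.48, -5.92 and -5.31 at 9 months, where it was well above background on no array, so it was at least 1.63-fold lower (adjusted p = 0.027). Feature mouselincRNA0861- (-0.89, SE 0.16, adjusted p = 0.0047), mouselincRNA0263+ (-0.88, SE 0.12, adjusted p = 0.0019) and mouselincRNA0771- (-0.68, SE 0.08, adjusted p = 0.00077) were lower too, the last with 9-month levels of -1.16, -1.07 and -1.22 below every other sample; these 3 were picked after their values were seen.

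Several members called higher at 9 months were faint in WT. Feature mouselincRNA1278- had -6.70 and -4.24 in WT and -3.21, -3.54 and -2.47 at 9 months, a difference of 2.40 (SE 0.64, limma adjusted p = 0.026) in which the first WT sample stood apart. That WT sample lay near the median level of its negative probes, -6.66, and mouselincRNA1278- was detected in 10 of the 11 samples. Its call was lost in 5 of 19 alternatives, over which the difference ran from 0.18 to 3.63. Feature mouselincRNA0238- had -4.30, -4.12 and -4.76 at 9 months, at least 1.09-fold above WT (adjusted p = 0.0019), and mouselincRNA0365- had -6.18 and -6.74 in WT and -3.87, -4.81 and -4.48, at least 1.095-fold higher (adjusted p = 0.011). Feature mouselincRNA1171+ had -6.42 and -5.48 in WT and -4.38, -2.16 and -4.34 at 9 months, at least 1.86-fold higher (adjusted p = 0.034), and the second 9-month sample stood above the other two. Of the 30 higher calls, 18 were detected in neither WT sample.

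**Figure D4:**
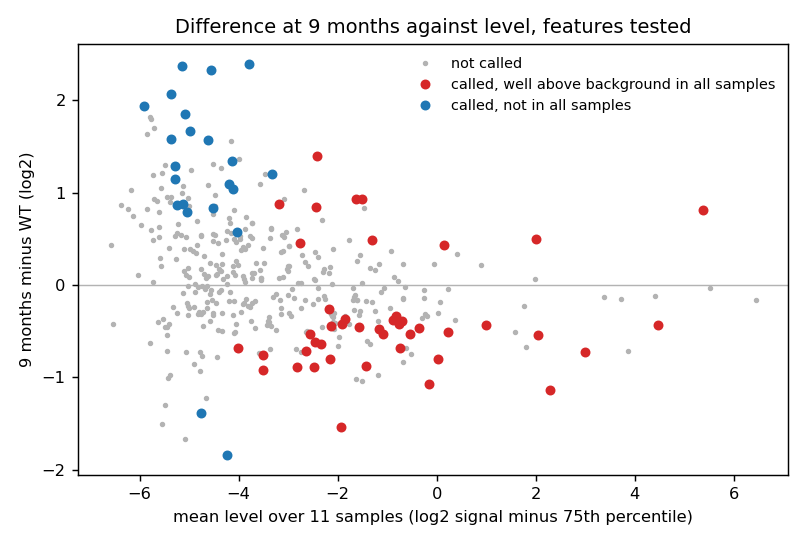
Difference between 9 months and WT (log2, y axis) against mean level over the 11 samples (log2 signal minus 75th percentile, x axis) for the 403 mouselinc features tested, each point a feature. Of the 37 called lower, 35 were detected in all samples, and the median level of the 37 was -1.43. The 30 called higher had a median level of -4.16, and most lie at the left, among features not detected in all samples.

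Between 6 and 1 month, a comparison that uses no WT sample, 10 mouselinc features were called, 4 higher and 6 lower, against 22.2% of all features tested. That is 2.48% of the mouselinc features tested. The lower ones were mouselincRNA0079+, mouselincRNA0499+, mouselincRNA0309-, mouselincRNA0293+, mouselincRNA0797+ and mouselincRNA0478+, all detected in every sample. Feature mouselincRNA0079+ stood at -2.95 and -2.88 at 1 month and -3.61 and -3.85 at 6 months, a difference of -0.81 (SE 0.18, limma adjusted p = 0.015). Its WT levels of -3.87 and -3.55 were near those at 6 months, and at 1 month it was higher than WT by 0.79 (SE 0.18, adjusted p = 0.036, lost in 11 of 21 alternatives). Feature mouselincRNA0293+ did likewise, with -3.05 and -2.97 in WT, -2.45 and -2.44 at 1 month and -2.90 and -2.95 at 6 months (-0.49, SE 0.13, adjusted p = 0.035, lost in 13 of 21 alternatives). The higher ones were mouselincRNA0651+, mouselincRNA0344+, mouselincRNA1098-, at -6.01 and -5.81 against -5.02 and -4.62, at least 1.02-fold higher (adjusted p = 0.031), and mouselincRNA1667-, at -4.75 and -4.39 against -3.83 and -3.53, which differed by 0.89 (SE 0.24, adjusted p = 0.036). Feature mouselincRNA1098- was detected in the 6-month samples alone. It met the filter only through the group where it was higher, so its call is not independent of the filter. The call of mouselincRNA0344+ was lost in 11 of 18 alternatives, that of mouselincRNA1098- in 7 of 19 and that of mouselincRNA1667- in 9 of 21. Backgrounds among features detected in all samples were 15% higher and 11.4% lower, and the 6 lower members made 2.96% of the 203. The split of 4 higher and 6 lower was 4 and 10 under quantile normalization, 4 and 4 under median scaling, and 3 lower calls alone under normexp, and the count was 4 without 1-month sample 1.

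Across the 4 APP/PS1 ages together (an F test in the same fit), 50 mouselinc features were called, against 42.1% of all features tested, and 39 of them were detected in all samples, where the background was 49.5%. Among the called members with wide ranges of age means, mouselincRNA0750- was detected in all samples, with a range of 1.47 (limma adjusted p = 0.0014). For mouselincRNA0651+ (adjusted p = 0.0031), mouselincRNA0344+ (adjusted p = 0.0085), mouselincRNA1001- (adjusted p = 0.027) and mouselincRNA0963+ (adjusted p = 0.043) the lowest age was well above background on no array, so no range is given, and the call of mouselincRNA0963+ was lost in 14 of 21 alternatives. Feature mouselincRNA1001- had -6.59 and -6.58 at 3 months and between -5.33 and -4.90 at 6 and 9 months, and was well above background in 1 sample of each of those ages. Without the 9-month samples the count was 4 of 379 members tested, against 8693 of 46955 features. It was 28 without 1-month sample 2, 33 without 9-month sample 1, 32 without 9-month sample 2 and 33 without 9-month sample 3.

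The share called was also counted by level, as a description. Of the 90 members above the median level of all features tested, 28.9% were called at 9 months, against 40.8% of all 24179 features above it. Above that level the shares were 3.33% and 10.8% at 1 month, 3.33% and 12.5% at 3 months, 11.1% and 26.5% at 6 months, 3.33% and 31.8% for 6 against 1 month, and 25.6% and 58.6% across the 4 ages. At or below it 13.1% of 313 members were called at 9 months, against 21.1% of all. Levels within either part were not matched, and the part of signal level in these shares was not tested.

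The + and - features of one lincRNA often differed in whether they were detected. Of the 340 lincRNAs with both, 30 had both features detected in all 11 samples, 141 had exactly 1, and 169 had neither. In 67 of the 141, the other feature was detected in no sample; the detected one was + in 29 and - in 38. Neither feature was detected in any sample for 33. LincRNA mouselincRNA1188 is an example, with the - feature between 6.24 and 6.65 in all samples and the + feature detected in no sample. Both features of mouselincRNA0077 were detected throughout. Its + feature lay between 5.35 and 5.65 with no call, and its - feature was lower at 9 months, with -1.04, -0.97 and -0.98 against -0.69 and -0.46 in WT (-0.42, SE 0.11, limma adjusted p = 0.027). The lincRNAs mouselincRNA0158, mouselincRNA0453 and mouselincRNA0706 had both features detected in all samples and no call on either in any comparison; mouselincRNA0158- spread widely within groups, for example 3.69 and 4.72 in WT and 5.10 and 3.46 at 3 months.

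In 115 lincRNAs both features were tested, and at 9 months at least 1 was called in 33 and both in 7. Counted singly, 16.6% of mouselinc features tested were called at 9 months, against 31% of all features tested. Pairs were not counted over other features, and the directions within pairs were not tested. In 2 of the 7 both were lower. LincRNA mouselincRNA0797 had -0.89 for + and -0.34 for - (SE 0.10, limma adjusted p = 0.039, for the latter), and mouselincRNA1040 had -0.42 for + (SE 0.11, adjusted p = 0.026) and -0.44 for - (SE 0.11, adjusted p = 0.018). In the other 5 the features went opposite ways. Feature mouselincRNA0293+ was higher by 0.46 (SE 0.12, adjusted p = 0.025) while mouselincRNA0293- was lower by -0.53 (SE 0.10, adjusted p = 0.0065). This is the pair of the 5 with both features detected in all samples: mouselincRNA0293- had -0.24 and -0.52 in WT and -0.94, -0.83 and -0.96 at 9 months, and mouselincRNA0293+ had -3.05 and -2.97 against -2.42, -2.72 and -2.50. Under normexp mouselincRNA0293+ turned to -0.11 at 9 months. In the remaining 4, mouselincRNA0078, mouselincRNA0963, mouselincRNA1171 and mouselincRNA1634, the feature that was higher was well above background in neither WT sample. The 9-month call of mouselincRNA0078- was lost in 14 of 18 alternatives and changed sign in 1. That of mouselincRNA1171+ was lost in 7 of 19, and that of mouselincRNA0293+ was lost in 6 of 19 and changed sign in 1.

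**Figure D5:**
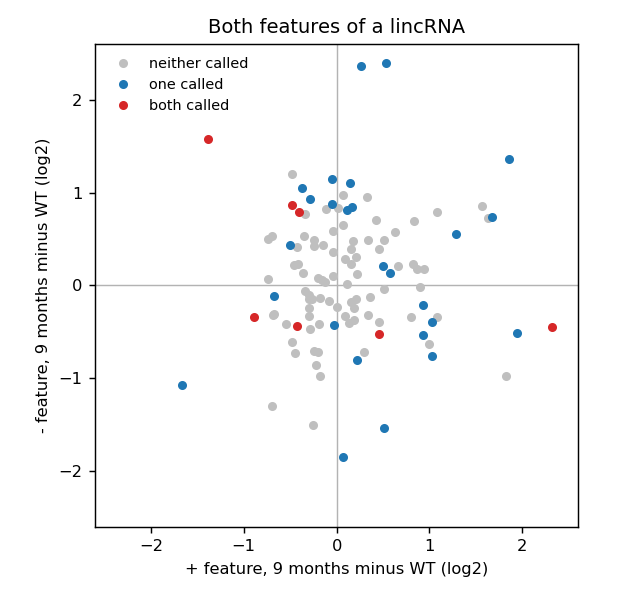
Difference between 9 months and WT (log2) of the + feature (x axis) and the - feature (y axis) for the 115 lincRNAs with both tested; each point is a lincRNA, coloured by how many of its features were called. Of the 7 with both called, 2 lie in the lower left and 5 in a quadrant of opposite signs.

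Members on in one group and off in another were those well above background on every array of one group and on none of another (75 of the 691, or 10.9%, against 8.26% of all 59575 features; no test was made). Taking for each the pair of such groups with the largest difference of means, the group in which it was on was 6 months for 45, 1 month for 16, 9 months for 11, WT for 2 and 3 months for 1. The group in which it was off was WT for 52, 3 months for 13, 9 months for 7 and 1 month for 3. Over the features of the whole array that met the rule, 52.6% were on at 6 months and 58.4% were off in WT, against 60.0% and 69.3% of the 75 members. The share of features detected on the whole array was 76.6% and 80.3% in the 6-month samples, and 70.2%, 76.9% and 78.5% in the 9-month samples. Values below background have no order, so the members named here are not ranked. Feature mouselincRNA0295+ stood at -3.91 and -2.59 at 1 month and -6.23 and -7.00 at 3 months, at least 2.43-fold apart, with WT at -4.20 and -6.74 and so spread across that range. Feature mouselincRNA0757+ had -2.93 and -4.23 at 6 months and -6.90 and -5.71 at 1 month, at least 2.41-fold apart, but 1 of the 2 samples at 3 months reached -2.64 and the other was at -6.65. Feature mouselincRNA0484+ had -3.75 and -3.87 at 6 months and -5.86 and -6.08 at 1 month, at least 2.06-fold apart. None of these 3 passed in a comparison tested here: the limma adjusted p for 6 against 1 month was 0.13 for mouselincRNA0295+, 0.16 for mouselincRNA0757+ and 0.16 for mouselincRNA0484+. The 1-month and 3-month groups between which mouselincRNA0295+ was on and off were not compared directly. Its limma F test across the 4 ages gave an adjusted p of 0.082.

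Likeness between members was described over the 5 group means of the 148 members compared, which were limited to those with a range of at least 1. The 5 most alike pairs were mouselincRNA1077- with mouselincRNA1667- (Pearson r 0.999), mouselincRNA0078- with mouselincRNA0155- (0.999), mouselincRNA0327+ with mouselincRNA0632- (0.997), mouselincRNA0632- with mouselincRNA0725- (0.996) and mouselincRNA0753- with mouselincRNA0935+ (0.996). All members share the same 11 samples and 5 means, so r is given as a description with no p. In all 5 pairs WT had the lowest group mean. Of the 9 features in them, mouselincRNA0632- had -5.10 and -3.85 in WT and -2.92 and -2.75 at 6 months, a difference of 1.64 (SE 0.44, limma adjusted p = 0.035). That call was lost in 9 of 21 alternatives, over which the difference ran from 0.02 to 2.27.

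Not every strong member was called, and a member that did not pass is not shown to be steady. Feature mouselincRNA1606- had levels of 4.81 and 4.61 in WT and 4.67, 4.45 and 4.66 at 9 months, and a first 3-month sample of 3.16 beside a second of 4.17; its difference at 3 months was -1.05 (SE 0.30, limma adjusted p = 0.073). Feature mouselincRNA0305-, by contrast, was lower than WT at 9 months as at 6, with 4.35, 4.29 and 4.31 (-0.44, SE 0.10, adjusted p = 0.013). Feature mouselincRNA0970- was lower at 3 months (limma adjusted p = 0.026, lost in 7 of 21 alternatives), 6 months (adjusted p = 0.040, lost in 13 of 21) and 9 months (adjusted p = 0.0035, kept in all 19), with 2.31 and 2.38 in WT, 1.86 and 1.91 at 3 months, 1.90 and 2.09 at 6 months, and 1.79, 1.80 and 1.83 at 9 months. Feature mouselincRNA0772- reached 2.57, 2.71 and 2.63 at 9 months (-0.72, SE 0.09, adjusted p = 0.00097).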

How the data were processed

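Brain RNA was measured on one-colour arrays. The scanner files hold spot intensities deposited by the authors. Per the file headers, they come from Agilent Feature Extraction (version 10.7.1.1 in the submitters' processing notes), and the processed signal used is background-subtracted and spatially detrended. Other deposited values used are flags of 0 or 1 per spot. A deposited value table equalled the mean local background intensity within 0.001 in all 62513 rows of each of the 14 arrays and was not used; 1 sample with a column there alone entered no comparison.

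Of 62513 spots, 2519 control and negative spots were left out; 134 probes flagged non-uniform were dropped, none of them a mouselinc feature. The log2 of the deposited intensity minus the 75th percentile of the array was averaged over spots of a probe. Arrays of a group whose residuals over negative-probe copies correlated above 0.5 (0.80 to 0.83 in 3 pairs, at most 0.24 in the other 88) were averaged. Features well above background in at least 2 of 11 samples were fitted with limma 3.58.1 (lmFit, eBayes) in R 4.3.3, with groups as the only terms, and p-values were Benjamini-Hochberg adjusted over 48358 features. The code was tested on simulated data. Every title gives replicate 1, and the bracketed codes in the titles are not said to mark a shared animal or batch, so no samples were paired.

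Members named are the 5 largest calls each way per comparison, the 5 widest ranges over ages, the 5 highest means, up to 10 on in one group and off in another, 5 lincRNAs with both features of highest mean, and the 5 most alike pairs; others are named as picked after their values were seen, or as part of a count or pair. The members, lists and rules were chosen with earlier results of these data known. Probe sequences and coordinates of the mouselinc features are not used here. Alternatives tried were other scalings, background correction, filters, blocks for sex and scan setting, other sets of samples, and leaving out each sample.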

Additional observations from a re-analysis of the deposited data

Results flagged for a closer look

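Of the mouselinc features tested, 10 differed between 6 months and 1 month by the limma contrast with adjusted p under 0.05, against 22.2% of all features tested; since both ages share the WT samples, this contrast is also that of their differences from WT. Of the 10, 9 are members named by rule and are given here, and the other, mouselincRNA0478+, had -0.35. The value was lower at 6 months for mouselincRNA0079+ (-0.809), mouselincRNA0499+ (-0.675), mouselincRNA0309- (-0.494), mouselincRNA0293+ (-0.486) and mouselincRNA0797+ (-0.431). It was higher at 6 months for mouselincRNA0651+ (2.42), mouselincRNA0344+ (1.33), mouselincRNA1098- (1.09) and mouselincRNA1667- (0.892). Of these, mouselincRNA0651+, mouselincRNA0344+ and mouselincRNA1098- were detected in no 1-month sample, so their log2 values are not measured sizes and they have bounds at most. Feature mouselincRNA1098- met the filter through its 6-month samples alone. The first 5 features were detected in all 11 samples, and of the last 4 none was detected in either WT sample.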

How the results depend on the processing

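Of the values of named members recomputed under the alternatives, 1497 kept their direction and their side of the threshold, 449 kept their direction and no longer passed, and 41 changed sign. All 41 did so under normexp, a background correction of the median signal with an offset of 50 that was chosen after seeing the data, since the mean signal planned for it was not in the files used here; the planned form was not run. It moved the median difference from WT of all features tested to -0.24 at 1 month, -0.16 at 3, -0.25 at 6 and -0.25 at 9 months, and that of the mouselinc features to -0.45, -0.29, -0.46 and -0.45. At 1 month against WT these were mouselincRNA0078- -0.40, mouselincRNA0079+ -0.19, mouselincRNA0238- -0.48, mouselincRNA0293+ -0.053, mouselincRNA0327+ -0.36, mouselincRNA0394- -0.14, mouselincRNA0935+ -0.049, mouselincRNA0953+ -0.33, mouselincRNA1619+ -0.53. At 3 months against WT these were mouselincRNA0078- -0.20, mouselincRNA0238- -0.27, mouselincRNA0342+ -0.23, mouselincRNA0394- -0.028, mouselincRNA0651+ -0.26, mouselincRNA0953+ -0.21, mouselincRNA1619+ -0.23. At 6 months against WT these were mouselincRNA0078- -0.46, mouselincRNA0238- -0.42, mouselincRNA0327+ -0.27, mouselincRNA0344+ -0.51, mouselincRNA0394- -0.29, mouselincRNA0651+ -0.38, mouselincRNA0935+ -0.078, mouselincRNA0941+ -0.16, mouselincRNA0953+ -0.30, mouselincRNA1098- -0.56, mouselincRNA1388- -0.37, mouselincRNA1619+ -0.51, mouselincRNA1667- -0.13. At 9 months against WT these were mouselincRNA0078- -0.39, mouselincRNA0238- -0.25, mouselincRNA0293+ -0.11, mouselincRNA0327+ -0.36, mouselincRNA0344+ -0.36, mouselincRNA0365- -0.22, mouselincRNA0394- -0.43, mouselincRNA0651+ -0.37, mouselincRNA0935+ -0.18, mouselincRNA0953+ -0.32, mouselincRNA1619+ -0.47, mouselincRNA1667- -0.22. The cause was not tested.

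The number called changed with the setting over all features as well as over the members. With only the groups compared, all features gave 441 of 43319 at 1 month and 786 of 41795 at 3 months. At 6 months they gave 2200 of 45658. Across the 4 ages, 8693 of 46955 features were called without the 9-month samples, 13328 of 48358 with normexp and 29562 with 14 arrays. In the main fit these were 4114, 4897 and 10128 of 48358 against WT, and 20375 across the ages. The mouselinc counts changed as follows. At 1 month the main 16 became 8 with quantile normalization, 7 with median scaling, 43 with 14 separate arrays, 10 without a filter, 10 with sex as a block, 1 with only the groups compared, 5 without the 9-month samples, 25 with the scan setting as a block, and 3 to 15 leaving out a sample. At 3 months the main 15 became 4 with normexp, 43 with 14 separate arrays, 0 with only the groups compared (36 at an unadjusted p under 0.05), 6 without the 9-month samples, 27 with the scan block, and 7 to 25 leaving out a sample. At 6 months the main 35 became 81 with normexp, 73 with 14 arrays, 65 without a filter, 7 with only the groups compared, 22 without the 9-month samples, 54 with the scan block, and 22 to 35 leaving out a sample. At 9 months the main 67 became 132 with normexp, and 46 to 75 leaving out a sample. For 6 against 1 month the main 10 became 3 with normexp, 44 with 14 arrays, 4 with only the groups compared, 6 without the 9-month samples, 39 with the scan block, and 4 to 13 leaving out a sample. Across the 4 ages the main 50 became 22 with normexp, 110 with 14 arrays, 4 without the 9-month samples, and 28 to 62 leaving out a sample. The fits of 14 arrays, with or without the scan block, count near-identical arrays as separate samples. No paired analysis was possible because every title gives the same replicate number and nothing says that the bracketed codes match samples across groups; sex as a block is among the settings above. Where leaving out a sample left 1 in a group, its spread was taken from the other groups. The signal over background limits the 288 members not tested, and those near the level of the negative probes have bounds at most.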
